A study of Mus musculus with 2 samples.

Results

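The 46 genes described here encode the ligands, receptors, Smad proteins, Id target genes and secreted antagonists of BMP and TGF-beta signalling. They were chosen by gene symbol, through Ensembl gene IDs without their version, and all 46 were found among the 43346 Ensembl genes of the tables. They were measured in the midbrain of B6NCrl mouse embryos, a C57BL/6 substrain, at embryonic day 15.5, in 2 libraries of total RNA. Each library came from a separate pool of embryos of mixed sex, 78 embryos in replicate 1 and 62 in replicate 2. RNA longer than 200 nt was isolated with the mirVana kit, and 10 ng with ERCC spike-in RNA was used for a library. There was 1 tissue and 1 age, so gene groups are compared within the tissue and the 2 pools with each other.

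BMPs, TGF-betas and activins are secreted dimers that bring together type I and type II serine/threonine kinase receptors on the cell surface. Receptors for BMPs pass the signal to Smad1, Smad5 and Smad9, and receptors for TGF-betas and activins to Smad2 and Smad3. Both kinds act in the nucleus with Smad4. In the developing brain BMPs from the roof plate and the meninges pattern dorsal cell types, Id proteins keep progenitors from differentiating, and TGF-betas act in vessels, microglia and young neurons.

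The libraries held 38966386 expected counts in replicate 1 and 40419493 in replicate 2. Of the 5 midbrain identity genes, 4 reached 1 TPM, a length-corrected share of all transcripts, in both libraries. Otx2, a forebrain and midbrain homeobox gene, stood at 66.4 and 66.1 TPM, and En2 at 1.21 TPM in replicate 1 and 0.76 TPM in replicate 2. All 6 neuron and all 6 radial glia markers were expressed, as were all 8 meningeal fibroblast, 7 endothelial, 6 mural and 6 microglia markers, so the RNA is that of a mixed tissue. In such bulk RNA, fewer cells of a type and less RNA per cell cannot be told apart. Of the 6 muscle and cartilage markers 2 were expressed: Col2a1, a cartilage collagen gene, stood at 28.9 and 28.1 TPM and Acta1, for skeletal muscle actin, at 5.49 and 5.44 TPM. The muscle regulators Myod1 and Myog were at 0.12 TPM or less.

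Of the 46 genes, 40 reached 1 TPM in both libraries and were called expressed. That level was reached by 35.4% of all 43346 genes and by 62.4% of the 21474 protein coding genes. All 10 receptors, all 4 Id genes and all 8 antagonists and modulators were expressed, with 7 of 8 Smads and 11 of 16 ligands. Only 3 genes were at 100 TPM or more in both libraries. A mean of 10 to 100 TPM was found for 15 genes, 1 to 10 TPM for 23 and under 1 TPM for 5. The expressed members had a median of 8.25 TPM in replicate 1 and 7.88 TPM in replicate 2. It lay below the median of all expressed protein coding genes, 20.3 TPM in both libraries. Most of the pathway was therefore present at low to moderate level, and the 3 genes at the top were Id genes. The posterior SD of a member's count, a measure of uncertain read assignment, was at most 4.54% of its mean.

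**Figure D1:**
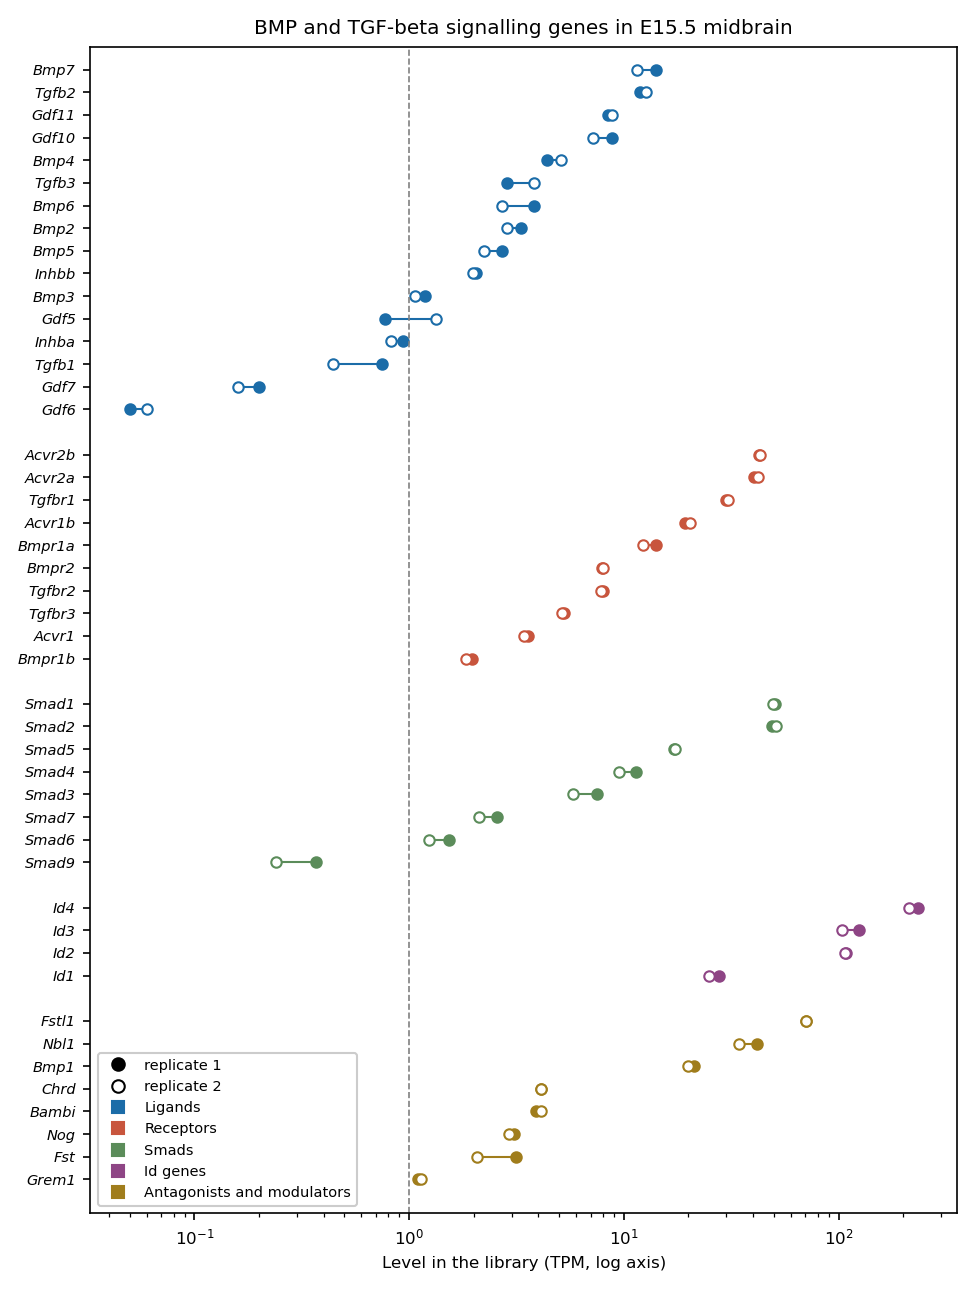
Level of each of the 46 genes in TPM on a log axis, by role, with replicate 1 as filled and replicate 2 as open points joined by a line. The dashed line marks 1 TPM. Id genes are at the right, between 25.0 and 233 TPM, and the ligands are all under 15 TPM.

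The ligands were the lowest group, with a median of 2.63 ± 0.216 TPM (SD, n = 2). Bmp7 (chr2:172868012-172940321, mm10), a BMP of the roof plate, meninges and choroid plexus, stood at 14.1 TPM in replicate 1 and 11.6 TPM in replicate 2. Tgfb2, the TGF-beta made by many neurons and glia of the embryonic brain, stood at 11.9 and 12.7 TPM. Over all transcripts these were the most abundant ligands, and their order differed between the libraries. On protein coding transcripts alone Bmp7 had 10.8 and 9.92 TPM and Tgfb2 5.39 and 5.60 TPM, since a retained-intron transcript held much of the abundance of Tgfb2. Gdf10, also called BMP3b, had 8.84 and 7.22 TPM, and Gdf11, which limits neurogenesis in several embryonic tissues, had 8.48 and 8.85 TPM. Their order differed between the libraries as well, and both were above the coding level of Tgfb2.

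Other BMPs followed at lower levels. Bmp4, a dorsal patterning signal, had 4.40 TPM in replicate 1 and 5.10 TPM in replicate 2. Its close relative Bmp2 had 3.32 and 2.86 TPM. Bmp6 had 3.82 and 2.71 TPM, and Bmp5, of the same subfamily as Bmp6 and Bmp7, had 2.71 and 2.24 TPM. Bmp3, which opposes other BMPs, was just above the threshold at 1.18 and 1.06 TPM. Bmp7 alone made up 47.7% of the summed TPM of Bmp2 to Bmp7 in replicate 1 and 45.3% in replicate 2. It exceeded Bmp4 by 3.20-fold in replicate 1 and 2.26-fold in replicate 2. These shares and folds are over all transcripts, and both genes have a retained-intron transcript. On protein coding transcripts alone Bmp7 had 10.8 and 9.92 TPM and Bmp4 3.79 TPM in both libraries.

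Of the TGF-betas, Tgfb2 took 76.7% of the summed TPM in replicate 1 and 74.8% in replicate 2, or 60.8% and 56.7% over coding transcripts alone. Tgfb3 was next at 2.85 and 3.83 TPM. Tgfb1, the TGF-beta of blood, vessels and microglia, was below the threshold at 0.75 and 0.44 TPM, or 32 and 22 counts. Of the activin subunits, Inhbb was at 2.04 and 1.99 TPM and Inhba below the threshold at 0.94 and 0.82 TPM. Gdf5, known for its role in joints, crossed the threshold in replicate 2 alone, with 0.77 and 1.34 TPM. Gdf7, a roof plate signal, had 6 counts in replicate 1 and 5 in replicate 2. Gdf6 had 4 counts in replicate 1 and 5 in replicate 2. With 4 to 6 counts in a library, Gdf6 and Gdf7 were close to the 3 counts that a count of 0 allows. For a gene of 1000 nt, 3 counts amount to 0.143 TPM (replicate 1) and 0.138 TPM (replicate 2). For longer genes the limit in TPM is lower, and the effective lengths were 3433 nt for Gdf6 and 1308 nt for Gdf7. Such limits cover counting error only, since PCR copies could not be told apart.

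The receptors were expressed throughout, at a median of 10.6 ± 0.700 TPM. The activin type II receptors were the highest. Acvr2b (chr9:119402118-119434995), which also binds GDF11, stood at 42.8 TPM in replicate 1 and 43.1 TPM in replicate 2. Acvr2a (chr2:48814109-48903269) stood at 40.5 and 42.4 TPM. Together they made up 83.9% of the summed TPM of the type II receptors among the members in replicate 1 and 84.4% in replicate 2. The share is by gene and does not divide the type II receptors between the BMP and activin branches. The BMP type II receptor gene Bmpr2 had 7.92 and 7.96 TPM and the TGF-beta type II receptor gene Tgfbr2 8.02 and 7.80 TPM. Bmpr2 and Tgfbr2 changed order between the libraries, with ratios of 0.988 and 1.02.

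Type I receptors of the Smad2 and Smad3 branch exceeded those of the BMP branch. Tgfbr1, the TGF-beta type I receptor gene, had 29.8 TPM in replicate 1 and 30.4 TPM in replicate 2. Acvr1b, for activin and GDF11, had 19.2 and 20.3 TPM. Among BMP type I receptors, Bmpr1a had 14.2 and 12.2 TPM, Acvr1 3.57 and 3.41 TPM and Bmpr1b 1.96 and 1.84 TPM. Among the type I receptor genes of the member list, BMP-branch genes thus took 28.7% of the TPM in replicate 1 and 25.7% in replicate 2. The mean was 27.2 ± 2.14%. The share leaves out 2 type I receptor genes that are not members, Acvrl1 at 6.99 and 7.04 TPM and Acvr1c at 0.41 and 0.74 TPM. Acvrl1 was thus above Acvr1 and Bmpr1b. Bmpr1a exceeded Bmpr1b by 7.23-fold in replicate 1 and 6.66-fold in replicate 2. The co-receptor gene Tgfbr3, for betaglycan, which presents TGF-beta2 to its receptors, had 5.25 and 5.14 TPM.

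On the log2(TPM + 1) scale, the ligand median was below the receptor median by 1.63 in replicate 1 and 1.65 in replicate 2, a difference of -1.64 ± 0.02 (SD, n = 2). The SD here is between the 2 pools and leaves out the spread among the genes of a group. With 2 libraries the smallest p of a two-sided exact sign-flip test is 0.5, so none is given. Over expressed members alone the difference was -1.23.

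Among receptor-regulated Smads the BMP branch was somewhat higher in summed level, while its leading gene and that of the other branch changed order between the libraries. Smad1 (chr8:79338395-79399518), of the BMP branch, stood at 50.5 TPM in replicate 1 and 49.6 TPM in replicate 2. Smad2, of the TGF-beta and activin branch, stood at 48.9 and 51.1 TPM. Their ratio was 1.03 in replicate 1 and 0.971 in replicate 2, so their order differed between the libraries. Smad5 had 17.1 and 17.3 TPM and Smad3 7.51 and 5.82 TPM. Smad9, the third BMP-branch Smad, was the only Smad under the threshold, at 0.37 and 0.24 TPM. The BMP branch took 54.6% of the summed TPM in replicate 1 and 54.1% in replicate 2, or 54.4 ± 0.362% (SD, n = 2). The Smad2 and Smad3 branch took 45.4% and 45.9%. Within the branches, Smad1 held 74.3% and 73.9% and Smad2 86.7% and 89.8%.

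Smad4, the shared partner, had 11.4 TPM in replicate 1 and 9.52 TPM in replicate 2. The inhibitory Smads, which are induced by the signal and damp it, were low: Smad7 had 2.57 and 2.12 TPM and Smad6 1.54 and 1.24 TPM. Both together took 2.94% of the TPM of all Smads in replicate 1 and 2.45% in replicate 2. The median of the 8 Smads was 8.56 ± 1.26 TPM. It lay 0.28 ± 0.12 below the receptor median on the log2(TPM + 1) scale, but over expressed members alone the difference turned to 0.02 ± 0.10.

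**Figure D2:**
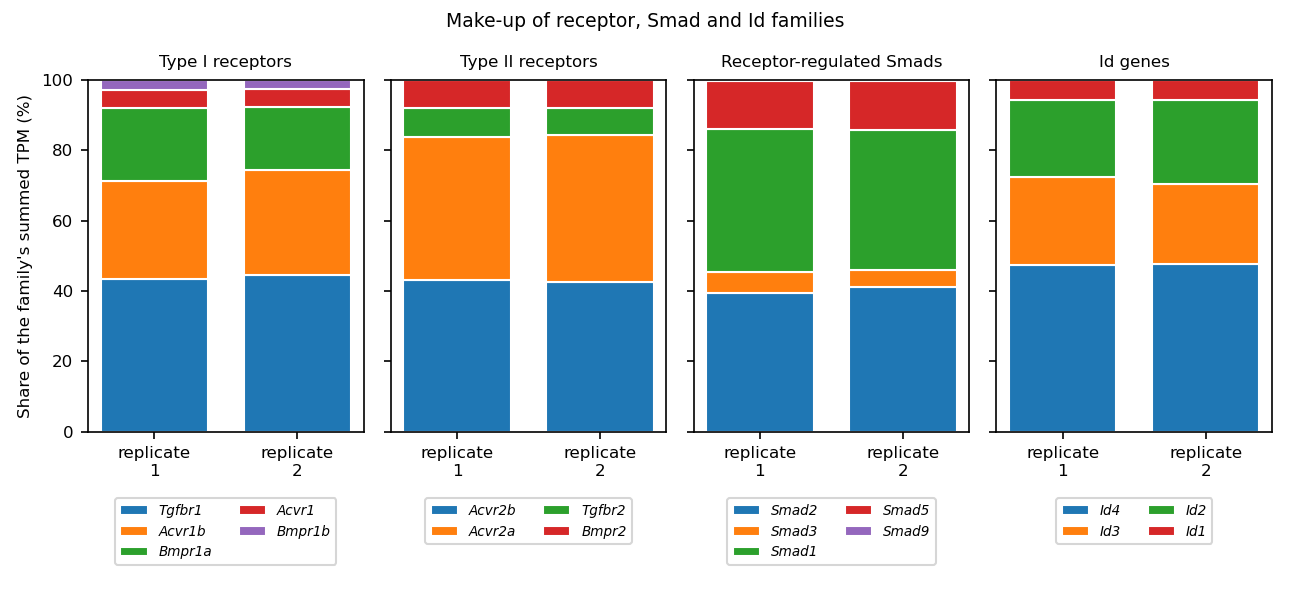
Share of each gene in the summed TPM of its family, in percent, counting members only, with replicate 1 left of replicate 2. The families are type I receptors, type II receptors, receptor-regulated Smads and Id genes. Acvr2a and Acvr2b fill 83.9% and 84.4% of the type II bar, and Id4 fills 47.3% and 47.6% of the Id bar.

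The Id genes were the highest group. Id proteins lack a DNA-binding region and hold proneural basic helix-loop-helix factors inactive, and their genes are classic targets of BMP signalling, though Notch and other inputs act on them too. Id4 (chr13:48261228-48266026) stood at 233 TPM in replicate 1 and 214 TPM in replicate 2, above 95.3% of expressed protein coding genes. Id3 (chr4:136143497-136145755) stood at 124 and 103 TPM. Id2 (chr12:25093799-25097140) stood at 109 and 107 TPM. Id1 (chr2:152736251-152737410), the lowest of the family, stood at 27.7 and 25.0 TPM. Id4 exceeded Id3 by 1.88-fold in replicate 1 and 2.07-fold in replicate 2, and Id2 exceeded Id1 by 3.92-fold and 4.29-fold. The ratio of Id3 to Id2 was 1.14 in replicate 1 and 0.965 in replicate 2, so these neighbours were not ordered beyond the spread between libraries. The 4 genes took 48.3% of the summed TPM of all 46 members in replicate 1 and 46.7% in replicate 2. Their median of 111 ± 7.70 TPM lay above that of the receptors by 3.30 ± 0.03 on the log2(TPM + 1) scale.

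Smad proteins bind DNA weakly at short motifs, and the promoters of Id4, the highest member, and of Smad6, an inhibitory Smad, are shown for 2 of these motifs. GGCGCC is a GC-rich element read by BMP-branch Smads, and GTCTAGAC is the palindromic Smad-binding element. Each equals its own reverse complement, so a match lies on both strands, and the motifs do not overlap in the windows shown. The windows are from RefSeq (GRCm38.p6), with capitals marking the motif. Id4 is at chr13:48260866-48261115 on the plus strand, the 250 bases before the RefSeq start, with GGCGCC beginning at position -148. Smad6 is at chr9:64022056-64022309 on the minus strand, with GTCTAGAC beginning at position -4 and running across the start.
Id4: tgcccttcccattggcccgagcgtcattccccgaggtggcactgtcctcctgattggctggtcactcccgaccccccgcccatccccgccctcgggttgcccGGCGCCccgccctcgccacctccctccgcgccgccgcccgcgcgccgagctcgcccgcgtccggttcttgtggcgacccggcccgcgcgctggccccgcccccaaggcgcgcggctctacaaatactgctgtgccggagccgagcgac
Smad6: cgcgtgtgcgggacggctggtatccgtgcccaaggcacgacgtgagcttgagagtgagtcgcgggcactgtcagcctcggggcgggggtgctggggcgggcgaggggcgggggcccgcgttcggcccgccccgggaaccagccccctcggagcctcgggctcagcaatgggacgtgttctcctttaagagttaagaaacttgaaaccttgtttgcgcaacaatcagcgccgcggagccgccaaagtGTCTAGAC
Over all 32851 RefSeq windows of 300 bases, GTCTAGAC was found in 70, or 0.213%, and among the 31 members with a window in Smad6 alone. GGCGCC was found in 11.9% of all windows and in 13 of the 36 windows of members. The 13 windows belong to 12 of the 31 members, among them Id2, Id4, Smad5, Bmpr1a, Bmpr2, Tgfbr1 and Acvr1b. No test was run on these counts. These are matches of letters only, and no binding was measured.

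Secreted antagonists and other modulators ranged from 1.10 to 70.9 TPM. Fstl1 (chr16:37776873-37836514), a follistatin-like glycoprotein that binds BMP4, stood at 70.9 TPM in replicate 1 and 70.5 TPM in replicate 2. On protein coding transcripts alone Fstl1 had 52.4 and 46.9 TPM. Nbl1, or DAN, which binds BMPs and GDFs, stood at 41.7 and 34.4 TPM. Bmp1, a metalloproteinase and no ligand, which cleaves procollagen and chordin, stood at 21.2 and 19.9 TPM. These 3 genes took 89.7% of the group's summed TPM in both libraries. The classic organizer antagonists were low. Chrd, for chordin, had 4.10 and 4.13 TPM, and Nog, for noggin, had 3.08 and 2.91 TPM. Fst, for follistatin, which traps activins and GDF11, had 3.14 TPM in replicate 1 and 2.06 TPM in replicate 2. Bambi, a decoy receptor without a kinase, had 3.90 and 4.10 TPM, and Grem1, for gremlin, 1.10 and 1.14 TPM. The group's median of 4.06 ± 0.0813 TPM lay 1.16 ± 0.10 below that of the receptors on the log2(TPM + 1) scale. By the mean of log2 values the distance was 0.48. By the mean of TPM over all transcripts the group, at 18.0 TPM, was above the receptors, at 17.4 TPM. Of its genes 3 were high and 5 low. The group was above the receptors in replicate 1, at 18.6 and 17.3 TPM, but not in replicate 2, at 17.4 and 17.5 TPM. Part of the Fstl1 abundance was not on coding transcripts, and group means on coding transcripts alone were not compared.

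Further genes of the pathway were read in 6 lists. Of the other ligands 16 were found and 3 of them expressed. Inha, the inhibin alpha subunit, had 20.0 TPM in both libraries, Gdf9 3.32 and 2.84 TPM and Lefty2 2.02 and 1.92 TPM. Nodal, Amh, Mstn and 10 more ligands were below the threshold. Of 10 other receptors and co-receptors 5 were expressed, led by Rgmb at 59.3 and 56.2 TPM, Rgma at 34.9 and 31.2 TPM and Neo1 at 29.5 and 30.7 TPM. Rgma and Rgmb are repulsive guidance molecules that act as BMP co-receptors, and Neo1, or neogenin, is their receptor.

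Of 19 other secreted antagonists and modulators 16 were expressed. Twsg1, twisted gastrulation, which binds BMPs together with chordin, had 45.9 TPM in replicate 1 and 43.0 TPM in replicate 2. Fstl5 had 41.0 and 42.7 TPM and Kcp 17.1 and 15.2 TPM. Of 12 genes for storage and activation of latent TGF-beta 9 were expressed. Itgav and Itgb8, whose integrin releases active TGF-beta, had 13.2 and 13.7 TPM and 9.20 and 8.47 TPM. Ltbp4, a latent TGF-beta binding protein, had 12.9 and 10.9 TPM.

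Intracellular regulators were expressed in 11 of 12 cases. Fkbp1a, for FKBP12, which binds type I receptors and has many other partners, stood at 476 TPM in replicate 1 and 466 TPM in replicate 2. The ubiquitin ligase gene Smurf1 had 29.7 and 34.0 TPM, and the phosphatase gene Ppm1a 28.7 and 29.9 TPM. Of 8 further target genes found, 5 were expressed, led by Zeb2 at 25.2 and 25.9 TPM, Hey1 at 18.3 and 18.2 TPM and Msx1 at 14.1 and 12.6 TPM. These 3 encode transcription factors. Their levels were below those of Id2, Id3 and Id4.

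Transcript tables, which played no part in the choice of genes, showed which form of each gene was read. Of the 46 genes, 27 had several listed transcripts, and 25 of these were expressed. The most abundant transcript was the same in both libraries for 25 of the 25. The same held for 91.7% of the 10301 expressed genes with several transcripts. The leading transcript was protein coding for 24. By the deposited percent it took at least 90% of the abundance in both libraries for 14 of the 25, among them those of Smad1, Smad3, Smad4, Smad5 and Smad6. By posterior mean TPM, an alternative estimate, fewer reached 90%. Smad3-201 then took 85.9% and 83.3%, Smad4-201 88.8% and 85.1% and Smad6-201 74.4% and 72.8%, while those of Smad1 and Smad5 stayed above 90%. Transcripts annotated as retained intron, processed transcript or decay target took 4.36% of the members' TPM in replicate 1 and 4.89% in replicate 2, against 11.6% and 11.9% over all expressed protein coding genes.

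Tgfb2 was the exception. Its leading transcript Tgfb2-205 is annotated as a retained intron, is 898 nt long and took 44.2% in replicate 1 and 49.5% in replicate 2. The coding transcript Tgfb2-201 took 26.6% and 36.6%. The coding transcript Tgfb2-206, which carries an additional exon, took 18.9% and 7.58%. These shares are per length, so the short transcript weighs more than its reads: Tgfb2-205 held 97.8 of 660 counts in replicate 1 and 121 of 771 in replicate 2. Tgfb2-206 held 177 and 78.3 counts, and Tgfb2-201 held 369 and 561.

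The type II receptor gene of TGF-beta was read in 2 coding forms. Tgfbr2-201 took 71.4% in replicate 1 and 63.1% in replicate 2. Tgfbr2-202, with an additional exon in the extracellular part, took 28.6% and 36.9%. In the authors' tables the forms are 4710 and 4785 nt long, and the additional exon has 75 nt. The additional exons, absent from Tgfb2-201 and Tgfbr2-201, are shown from GENCODE M21 transcripts on GRCm38, both from the minus strand and wholly coding. They are not the only difference. Tgfb2-206 is 3485 nt long and Tgfb2-201 5116 nt, so the Tgfb2 forms also differ elsewhere. In M21 the Tgfbr2 forms differ elsewhere as well, with 3476 nt for Tgfbr2-201 and 8092 nt for Tgfbr2-202. The Tgfb2-206 exon is at chr1:186690721-186690804, has 84 nt and has the length of 28 codons. The Tgfbr2-202 exon is at chr9:116158271-116158345 and has the length of 25 codons.
Tgfb2-206 exon 2: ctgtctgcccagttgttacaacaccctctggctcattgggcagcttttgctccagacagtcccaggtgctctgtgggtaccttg
Tgfbr2-202 exon 2: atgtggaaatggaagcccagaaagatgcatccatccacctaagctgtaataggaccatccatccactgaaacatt
Both exons are short beside their transcripts, so the shares also rest on how reads elsewhere in the gene were divided.

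Other receptors and ligands also had a mixture of forms. Acvr2b-202 took 67.7% in replicate 1 and 62.9% in replicate 2, with Acvr2b-201 for the rest. Smad2-205 took 65.6% and 63.4%. Acvr1-203 took 75.6% and 55.4%, and Acvr1-204 17.7% and 31.0%. Bmp4-201 took 61.1% and 48.2%, with 169 and 179 counts for the whole gene. No test was run on transcript shares.

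**Figure D3:**
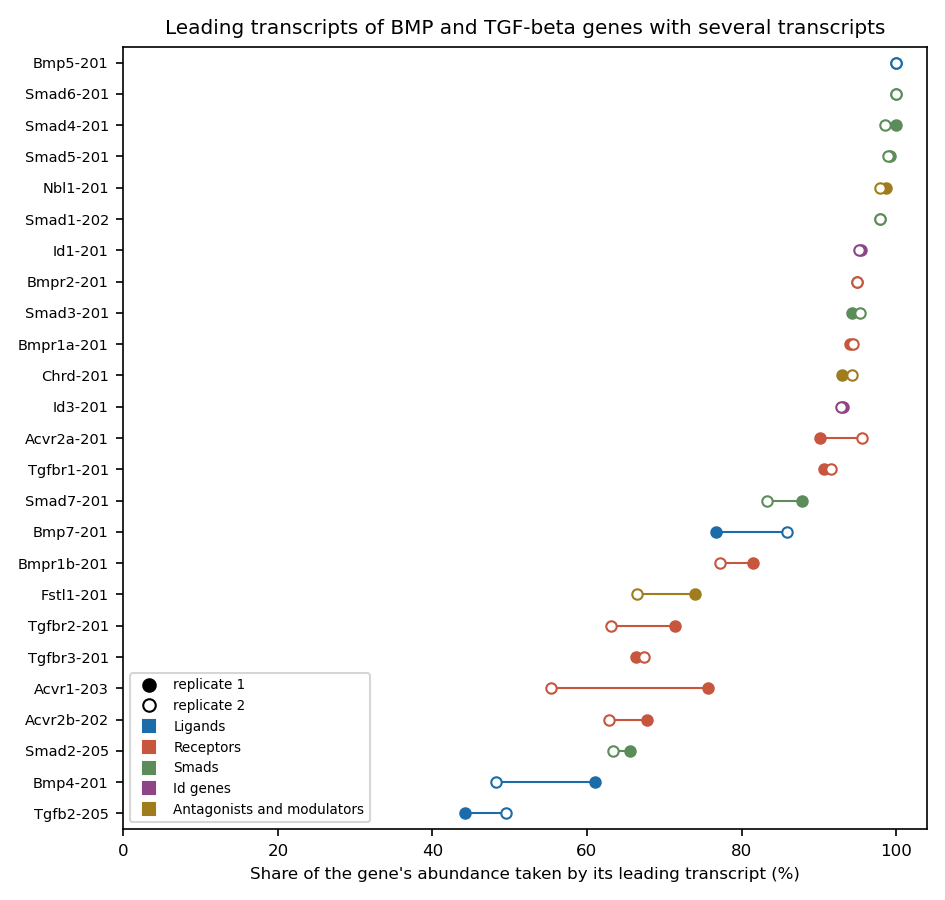
Share of the gene's abundance taken by its most abundant transcript, in percent, for the 25 expressed genes with several transcripts, with replicate 1 filled and replicate 2 open. Shares are the deposited percent, and by posterior mean TPM fewer genes reach 90%. For 14 genes both points are at 90% or more, and Tgfb2-205 is lowest at 44.2% and 49.5%.

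The 2 pools were then compared gene by gene. A gene passed when a two-sided exact binomial test on its rounded expected counts gave a Benjamini-Hochberg adjusted p under 0.05, over 18269 genes, and the counts differed at least 2-fold. Of the 46 genes 44 had enough counts to be tested, and 0 passed, where 1.63% of all tested genes passed. Without a threshold on the fold 13 members passed, 10 of them higher and 3 lower in replicate 1. This is 13 of 44 members, where 19.3% of all genes passed, 9.96% higher and 9.38% lower. Members at an unadjusted p under 0.05 numbered 16, where 30.6% of all genes had one. The test counts reads of 2 libraries and includes no spread between embryos, so a pass compares these pools and no condition. A negative binomial test took its spread over all genes from the same 2 libraries that it compared, so it gives no independent measure of noise. By it 0 members passed at any fold, 6 had an unadjusted p under 0.05, and the lowest adjusted p of a member was 0.257. Of all genes 1.29% passed that test. Ratios lay within 1.5-fold for 41 of the 44 members and for 91.8% of all tested genes. The median log2 ratio was 0.09 over the tested members and 0.0011 over all tested genes.

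The balance of higher and lower calls depended on the library sizes. Library sizes from the spike-in counts moved the median log2 ratio of all genes to 0.09. Of all genes passing at any fold, 89.9% were then higher in replicate 1, against 51.5% with TMM sizes. Among the 44 tested members 17 were then higher and 2 lower in replicate 1, where 5632 of all 18269 tested genes passed. With DESeq2 size factors 10 members were higher and 3 lower. Of all tested genes 3585 passed with these factors, 45.997% of them higher in replicate 1. The ratios that follow use TMM sizes.

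The largest ratios above 1 among members with a mean of at least 50 counts were those of Fst, Bmp6 and Smad3. Fst (chr13:114452290-114458951) had 164 counts in replicate 1 and 111 in replicate 2, a ratio of 1.52 (95% interval 1.19 to 1.96, adjusted p = 0.0054 by the exact binomial test). Bmp6 had 206 and 151 counts, a ratio of 1.41 (1.14 to 1.75, adjusted p = 0.0116, exact). Smad3 had 829 and 670 counts, a ratio of 1.28 (1.15 to 1.42, adjusted p = 5.3e-05, exact). These 3 are an antagonist of activin, a BMP and a Smad of the activin branch. Smaller ratios above 1 also passed for Gdf10, Nbl1, Smad4, Id3, Bmpr1a, Id4 and Fstl1, between 1.09 and 1.22. For Fstl1 the ratio of counts was 1.09 while its TPM was nearly equal. TPM is a count over an effective length, which for Fstl1 was 2911 nt in replicate 1 and 2685 nt in replicate 2. Its long coding transcript Fstl1-201 took 73.9% and 66.4% of its abundance. The shorter Fstl1-202, annotated as a processed transcript, took 19.9% and 25.8%.

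On the other side, Gdf5 (chr2:155941023-155945367) had 40 counts in replicate 1 and 72 in replicate 2, a ratio of 0.576 (0.379 to 0.855, adjusted p = 0.0277, exact). Tgfb3 had 219 and 303 counts, a ratio of 0.746 (0.624 to 0.890, adjusted p = 0.0086, exact). Tgfb2 had 660 and 771 counts, a ratio of 0.883 with an adjusted p of 0.0853 in the exact test, and did not pass. Acvr2a passed with a ratio of 0.912, on 4868 and 5509 counts, but with library sizes from the spike-in counts its log2 ratio was -0.05 and its adjusted p 0.212. Beyond 1.5-fold and past the adjusted p lay Fst and Gdf5 alone, 2 of 44 members, where 2.88% of all genes did. Smad9 had a ratio as large as that of Fst, 1.52, but on few counts, 46 and 31, and its interval included 1.

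**Figure D4:**
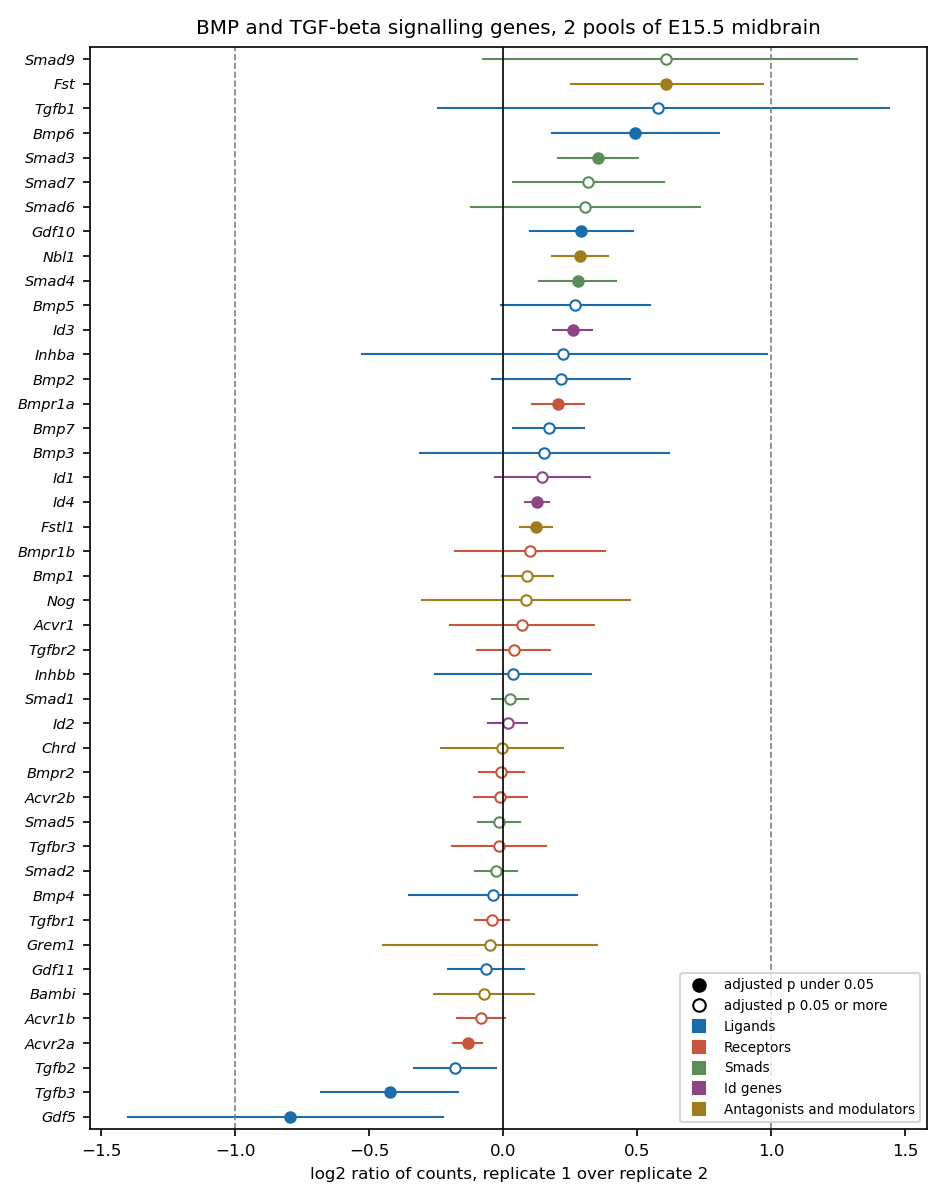
Ratio of counts in replicate 1 over replicate 2 on a log2 scale, with 95% counting intervals, for the 44 tested genes in order of the ratio. Filled points passed at an adjusted p under 0.05, and dashed lines mark a 2-fold difference, which no point crosses.

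By role, of the 14 ligands tested 2 passed at any fold as higher in replicate 1 and 2 as lower. Of the 10 receptors 1 passed as higher and 1 as lower. As higher passed 2 of the 8 Smads, 2 of the 4 Id genes and 3 of the 8 antagonists and modulators. Of all tested genes 9.96% passed as higher and 9.38% as lower. Passing or not, ratios were above 1 for 9 ligands, 4 receptors, 6 Smads, 4 Id genes and 5 antagonists and modulators. They were below 1 for 5 ligands, 6 receptors, 2 Smads, 0 Id genes and 3 antagonists and modulators. In each of the 6 lists of further pathway genes 0 passed at 2-fold. At any fold, Rgma and Twsg1 were higher in replicate 1 and Fstl5, Smurf1 and Skil lower, among others.

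Markers of several cell types moved in the same direction as the members that were higher in replicate 1. In the counts given here, a marker was called higher or lower only if it passed at any fold. Meningeal fibroblast markers were higher in replicate 1 for 5 of 8 genes, and summed to 426 TPM in replicate 1 and 375 TPM in replicate 2. Radial glia markers were higher for 4 of 6 genes (1592 and 1507 TPM), microglia markers for 4 of 6 (127 and 101 TPM) and erythroid markers for 6 of 6 (14772 and 11524 TPM). Passing or not, ratios were above 1 for all 8 fibroblast, all 6 radial glia and 5 of 6 microglia markers. They were below 1 for 4 of 5 choroid plexus and all 5 skin markers. Of the neuron markers 2 were higher and 4 lower in replicate 1, with sums of 3480 and 3517 TPM. Skin keratin genes were lower in replicate 1 for 3 of 5 genes, with sums of 14.7 and 28.9 TPM. The 3 are Krt5, at 0.08 and 4.72 TPM, Krt14, at 0.21 and 5.02 TPM, and Krt15, at 0.35 and 3.42 TPM. Krt1, at 7.48 and 8.52 TPM, and Krt10, at 6.61 and 7.25 TPM, did not pass. Endothelial markers summed to 190 and 164 TPM, mural markers to 203 and 161 TPM and choroid plexus markers to 260 and 290 TPM, with at most 1 gene passing in a direction. Muscle and cartilage markers summed to 34.7 and 34.0 TPM, and 0 of 4 passed. Midbrain identity genes were higher in replicate 1 for 3 of 5, with sums of 152 and 139 TPM. These were En1, with a ratio of counts of 1.35, En2, with 1.58, and Meis2, with 1.20. The part of these cell types and of regional make-up in the ratios of Fst, Bmp6, Smad3, Id3, Id4, Gdf5 and Tgfb3 was not tested.

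**Figure D5:**
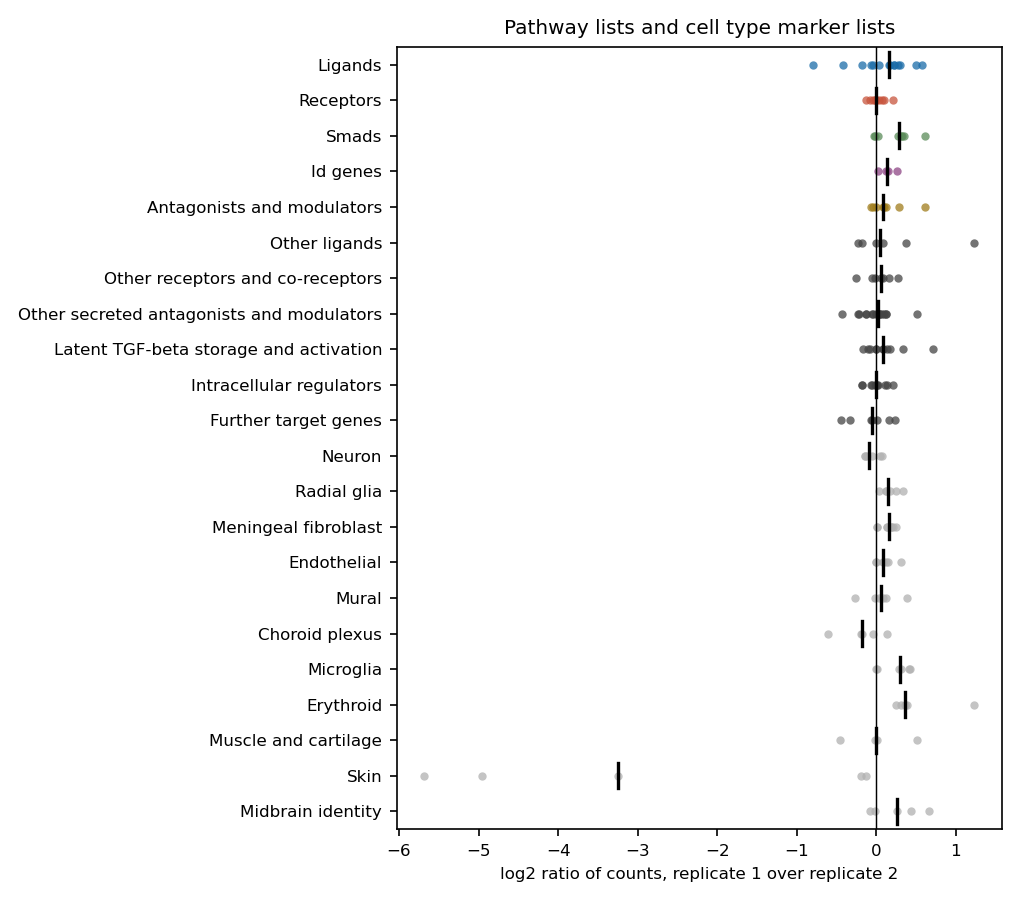
Log2 ratio of counts in replicate 1 over replicate 2 for each tested gene (points) and the median of each list (black bars), for the 5 role groups in colour, further pathway lists in dark grey and cell type markers in light grey. Medians of the role groups and pathway lists lie between -0.06 and 0.29. Single pathway genes reach 1.22 for Bmp15, on 21 and 9 counts, and -0.79 for Gdf5. All 6 erythroid markers lie to the right of 0, and 3 skin keratin genes lie far to the left.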

How the data were processed

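Total RNA of 2 pools of E15.5 midbrain was sequenced, and the authors deposited a gene and a transcript table for each library. These hold expected counts (estimated reads per feature), TPM, FPKM and, for transcripts, the percent of the gene's abundance, per the file headers. The deposited TPM are scaled to a fixed sum over all rows, spike-ins included, and the deposited FPKM served as an alternative. Reads were aligned to mm10 with GENCODE M4, per notes the authors deposited beside the tables. Which aligner and counting tool were used is not given in the sources used here. Nor is the strand setting, so reads of a gene and of an antisense partner may be mixed.

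Of 43346 Ensembl genes 42462 were given a symbol by ID. Transcript names, types and coordinates came from GENCODE M21 on the same build, and promoters from RefSeq. The libraries held 38966386 and 40419493 expected counts, of which spike-ins took 2.30% and 2.42%, and rows without an Ensembl ID took 5.5e-05% and 3.0e-05%. Gdf1 and Ctgf, from the further lists, found no match by symbol and are not analysed here.

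Levels are given per library and as mean ± SD (n = 2). The labels call the libraries biological replicates, each from its own pool. Genes at 1 TPM in both were called expressed. Rounded expected counts of each gene were compared between libraries by an exact binomial test (two-sided), with TMM library sizes (edgeR 4.0.16, R 4.3.3) and Benjamini-Hochberg adjustment over genes averaging at least 10 counts. Log2 ratios used 0.5 added to each count. Alternatives included DESeq2 1.42.0 size factors, spike-in sizes and edgeR's negative binomial test, with a common biological coefficient of variation of 0.0650. The binomial test was checked on counts simulated with counting error alone and 4-fold changes. That check does not cover spread between pools or ratios as small as those of the members. Python 3.11.15 with pandas 2.3.3, scipy 1.17.1 and matplotlib 3.10.9 did the rest.

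The members and gene lists were chosen with earlier results of these data known. Every member could be named, as could the 3 largest ratios in each direction among members averaging at least 50 counts and the 3 highest genes of each further list. Further genes named for passing at any fold were chosen after their values were seen.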

Additional observations from a re-analysis of the deposited data

How the results depend on the processing

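Among the differences between groups, ligands stayed below and Id genes above receptors under the alternatives tried, while 2 other orders turned, as given here. A threshold of 5 TPM left 24 members expressed. Medians over expressed members only were 3.83 TPM for ligands and 10.5 TPM for Smads. Group means in place of medians were 4.04 TPM for ligands, 17.4 TPM for receptors, 17.3 TPM for Smads and 18.0 TPM for antagonists and modulators, which puts antagonists and modulators above receptors. By library these means were 18.6 and 17.4 TPM for antagonists and modulators and 17.3 and 17.5 TPM for receptors, so this order differed between libraries. The means are over all transcripts, and the order was not checked on coding transcripts alone. In FPKM the medians were 1.57 for ligands, 6.34 for receptors, 5.13 for Smads, 66.2 for Id genes and 2.43 for antagonists and modulators.

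On the log2 scale, a pseudocount of 0.1 gave -1.93 for ligands minus receptors, 3.42 for Id genes minus receptors and -1.32 for antagonists and modulators minus receptors. Means of log2 values gave -1.79, 2.88 and -0.48 for these and -0.50 for Smads minus receptors. Posterior mean TPM gave -1.61 for ligands and 3.28 for Id genes. Over expressed members only, ligands minus receptors was -1.23, and Smads minus receptors turned to 0.017, since Smad9 then drops out.

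With 1 library left out, members expressed ran from 40 to 41. Medians ran from 2.48 to 2.78 TPM for ligands, 10.1 to 11.1 for receptors, 7.67 to 9.46 for Smads, 105 to 116 for Id genes and 4.00 to 4.12 for antagonists and modulators. Differences ran from -1.65 to -1.63 for ligands, 3.29 to 3.32 for Id genes, -1.23 to -1.09 for antagonists and modulators and -0.36 to -0.19 for Smads. The test between libraries needs both.

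Of all genes, 298 passed at 2-fold. The count was 67 with a mean of 50 or more counts, 3534 with no fold threshold, 527 at 1.5-fold and 158 by the negative binomial test at 2-fold. Members passing numbered 0 at 2-fold under each alternative that kept that fold, 13 with no fold threshold and 2 at 1.5-fold. Spike-in sizes for single members, and levels on coding transcripts alone, were added after seeing the data. With spike-in sizes Bmp7, Id2, Bmp1, Smad7, Smad1, Bmp5 and Id1 also passed at any fold, and Acvr2a no longer did. The number of members with the same leading transcript was 25 of 25, and 18 of 18 at 5 TPM or more. Genes under 10 counts, such as Gdf6 and Gdf7, were too shallow to compare. No paired analysis was possible because the series has 1 group of 2 replicates.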

Other observations

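Several genes of vessel and matrix signalling that were not among the 46 members were expressed beside them. Eng, for the endothelial co-receptor endoglin, stood at 26.6 TPM in replicate 1 and 26.8 TPM in replicate 2. Acvrl1, for the endothelial type I receptor ALK1, stood at 6.99 and 7.04 TPM. Chrdl1, for a chordin-like BMP antagonist, stood at 2.94 and 2.08 TPM, a ratio of counts of 1.43. Ltbp3, a latent TGF-beta binding protein gene, stood at 4.75 and 3.78 TPM, a ratio of 1.26. Bmper, for a secreted BMP modulator of vessels, stood at 5.81 and 5.68 TPM. These genes were picked from the lists after their values were seen.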
